A study of Mus musculus with 10 samples.

Results

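The genes described here encode the subunits of the proteasome. They were taken as every row of the KrasT and MycT expression tables whose symbol is Psma, Psmb, Psmc or Psmd followed by a number, leaving out the interferon-induced Psmb8, Psmb9 and Psmb10. That gave 36 of the 23924 genes in each table. Of these, 16 belong to the 20S core (Psma1 to Psma8, Psmb1 to Psmb7 and Psmb11) and 20 to the 19S regulatory particle (Psmc1 to Psmc6 and Psmd1 to Psmd14). All 36 were present in both tables, and 34 of them passed the filter on low values in each.

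RNA was sequenced from mouse pancreatic tumours of 2 models, named KrasT and MycT, that had been transplanted orthotopically. All hosts were athymic nude mice, a strain without a thymus and hence without mature T cells. The doxycycline groups (3 KrasT and 2 MycT tumours) came from hosts that drank doxycycline at 100 ug/ml with 2.5% sucrose for 14 days, and the untreated groups (3 KrasT and 2 MycT tumours) from hosts with 0 days of doxycycline. Doxycycline switches tetracycline-controlled transgenes, and the series asks how tumour cells persist without their oncogenic driver. The labels do not say how the KrasT and MycT transgenes are built or which cells carry them, and they name no sucrose for untreated hosts, so doxycycline or sucrose itself cannot be told apart from the switched oncogene. Each library came from whole tumour tissue of its own animal.

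The proteasome degrades proteins that carry chains of ubiquitin. Its barrel-shaped core is a stack of rings: the outer rings of alpha subunits (Psma genes) gate the entrance, and the inner rings of beta subunits (Psmb genes) hold the cutting sites. The regulatory particle caps the core, where ATPases (Psmc genes) unfold the substrate and thread it into the barrel, and non-ATPase subunits (Psmd genes) bind ubiquitin chains and remove them. Cells that make protein fast, tumour cells among them, depend on proteasome activity, and interferons exchange the catalytic beta subunits for the immunoproteasome forms.

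Expression was given as FPKM, fragments scaled by transcript length and by the mapped fragments of the library, so levels of different genes are per length. Summed over all genes it came to 513949 to 569272 in doxycycline KrasT libraries, against 789672 to 1018970 in untreated ones, and to 546008 to 557227 in doxycycline MycT libraries, against 1126800 to 1517330 in untreated ones. Messages of 84 ribosomal proteins made up 16.0 to 26.0% of the total in doxycycline KrasT tumours and 27.7 to 35.0% in untreated ones, and 21.8 to 22.2% in doxycycline MycT tumours and 47.0 to 49.6% in untreated ones. Rn45s, the ribosomal RNA precursor, reached 17238 FPKM in doxycycline KrasT replicate 1 and 20880 FPKM in doxycycline MycT replicate 2, and at most 2231 FPKM elsewhere. Untreated KrasT replicate 1 stood apart among the proteasome genes. It had the highest value of its group for 14 of 14 core genes and 11 of 20 regulatory particle genes, and the lowest for 5 of those 20. Counts and medians of the subunit classes without it are given with the KrasT counts.

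Other cell types also differed between the groups. For markers, rose and fell mean called at a limma adjusted p under 0.05. At that level 8.46% of all tested genes rose and 8.25% fell in KrasT, and 0.00779% rose and 0.0312% fell in MycT. Markers of fibroblasts rose in 8 of 8 genes in KrasT, with sums of 3802 to 9199 FPKM in doxycycline tumours and 290 to 647 FPKM in untreated ones, and markers of endothelium in 6 of 6, with sums of 49.5 to 121 FPKM and 9.99 to 16.2 FPKM in those groups. Proliferation genes fell in 2 of 5 and markers of ductal epithelium in 2 of 6 in KrasT. The proliferation sums were 5.19 to 11.6 FPKM in doxycycline KrasT tumours and 30.4 to 65.6 FPKM in untreated ones, and the ductal sums 263 to 1624 FPKM and 2350 to 18018 FPKM. In MycT no marker was called, and ductal markers were present in every library of both models. There the fibroblast sums were 1623 to 2379 FPKM in doxycycline tumours and 35.5 to 415 FPKM in untreated ones, the proliferation sums 9.18 to 29.1 FPKM and 249.2 to 313 FPKM, and the ductal sums 770 to 1631 FPKM and 479 to 1155 FPKM. Of the other lists 2 of 3 neutrophil, 2 of 3 adipocyte and 2 of 5 islet markers rose in KrasT. There 0 of 5 acinar, 0 of 5 muscle and 0 of 3 erythroid markers were called, though all of their changes were positive. The KrasT acinar sums were 34.2 to 13311 FPKM in doxycycline tumours and 8.93 to 198 FPKM in untreated ones. The muscle sums were 33.9 to 3755 FPKM and 1.71 to 310 FPKM, and the islet sums 39.4 to 7218 FPKM and 0.187 to 60.8 FPKM. In MycT the muscle sums were 5.84 to 4896 FPKM and 1.61 to 2.31 FPKM, and the acinar sums 78.9 to 1590 FPKM and 83.7 to 260 FPKM. The acinar gene Amy2a5 was at 0 in all MycT libraries, and no list was at 0 as a whole in doxycycline tumours. The part of these cells in the proteasome results was not tested, and in whole tissue fewer cells of a type and less RNA per cell cannot be told apart.

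By the deposited FPKM, proteasome messages were lower after doxycycline in KrasT tumours, in the core and the regulatory particle alike. With every library set to the same total, or quantile normalized, 1 of 34 genes was called lower there. Of all genes 1.83 and 4.10% were called lower in turn. The KrasT changes stayed negative for 33 and 34 of the 34 genes. In MycT tumours proteasome messages were also lower by the deposited FPKM. There 20 of 34 genes turned positive once every library was set to the same total. In KrasT, 20 of the 34 tested genes fell and 0 rose at an adjusted p under 0.05 (limma with Benjamini-Hochberg adjustment over 12696 genes), where 8.25% of all tested genes fell and 8.46% rose. The changes ran from -1.68 (Psmd14) to -0.66 (Psmb6) on the scale of log2(FPKM + 1), with a median of -1.08 beside -0.10 over all genes tested. All 34 were negative, as were 54.7% of all genes tested, and all 34 had an unadjusted p under 0.05, against 18.7% of all genes that were lower at that level. For 34 of 34 genes every doxycycline value lay below every untreated value, as it did for 23.0% of all genes tested. These 34 genes had at least 8.86 FPKM in every library of either table, far above the filter of 1 FPKM, so the filter did not choose them by their change.

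In MycT, limma called 0 of the 34 genes, with 2 tumours per group. Of all 12834 tested genes 0.0312% were called lower and 0.00779% higher. An unadjusted p under 0.05 was reached by 22 of the 34, all with lower values after doxycycline, against 17.6% of all genes. The changes ran from -2.28 (Psma6) to -0.26 (Psmd2), with a median of -1.06 beside 0.04 over all genes tested, and all 34 were negative, as were 48.4% of all genes. For 32 of 34 genes the doxycycline values lay below the untreated values, as for 32.8% of all genes, and Psmc2 and Psmd2 overlapped. In 1 limma fit of both tables, which shares the spread between 10 libraries, 18 of the 34 fell in MycT, beside 12.3% of all genes, and 24 fell in KrasT, beside 9.09%.

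**Figure D1:**
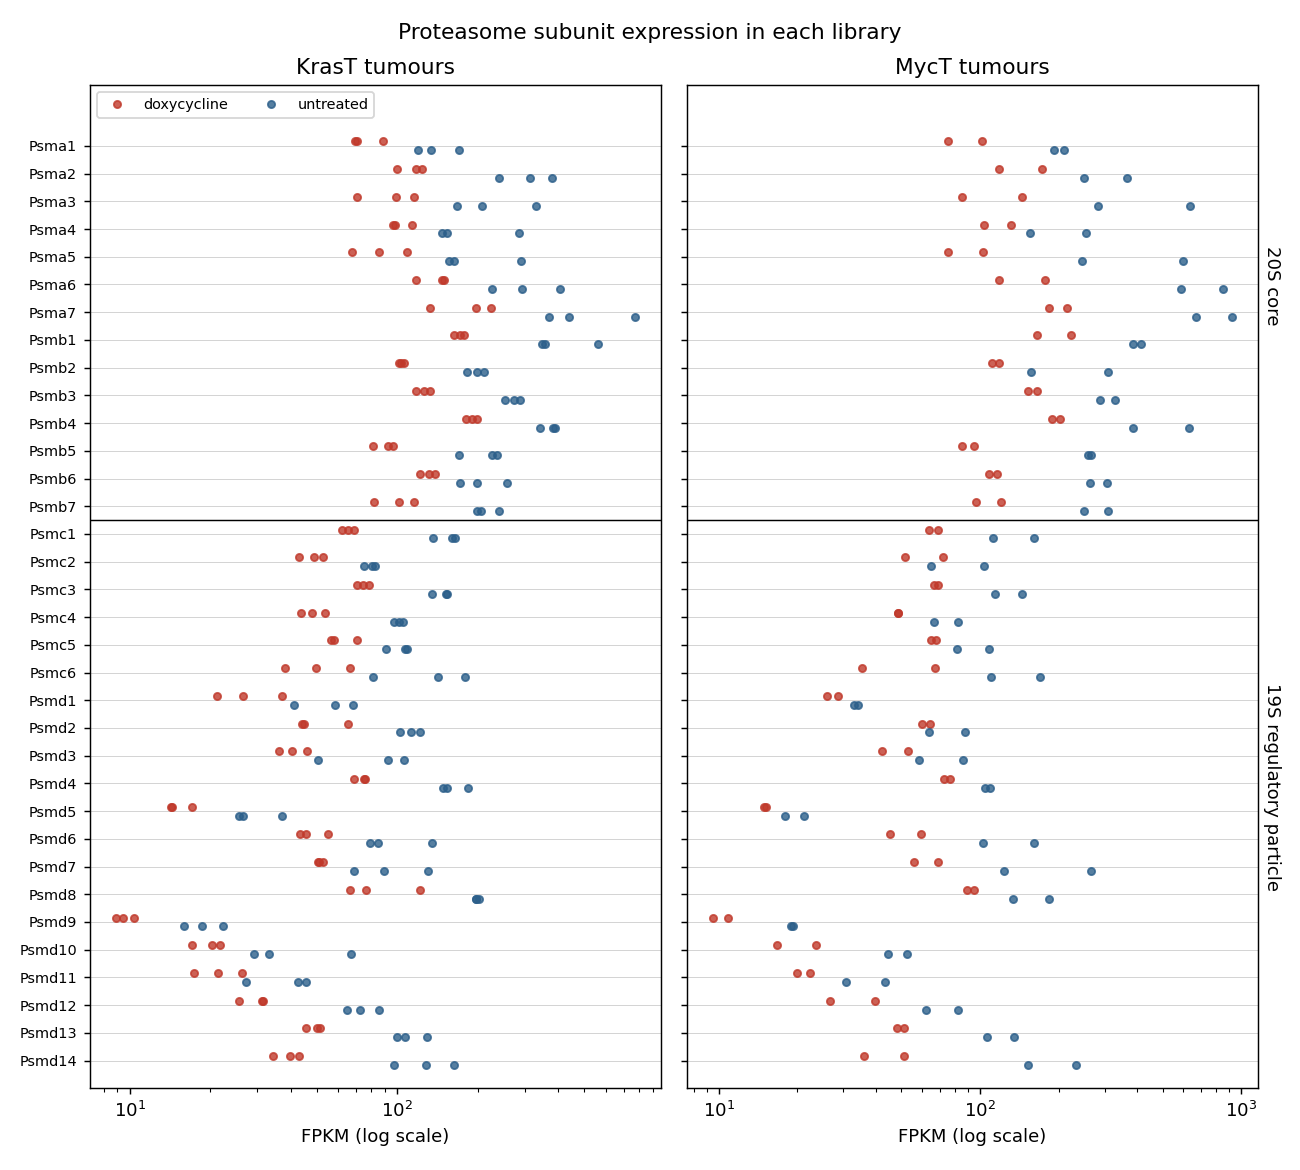
FPKM on a log axis (x) of the 34 tested proteasome genes (y), 1 point per library, with doxycycline tumours in red and untreated tumours in blue, for KrasT (left) and MycT (right). In KrasT the red points lie left of the blue points for 34 of 34 genes, and in MycT for 32 of 34, with Psmc2 and Psmd2 overlapping.

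The KrasT count depends on single libraries. Without untreated replicate 1 it was 28, without untreated replicate 2 it was 2 and without untreated replicate 3 it was 0. Without doxycycline replicate 1 it was 9, without doxycycline replicate 2 it was 3 and without doxycycline replicate 3 it was 0. The share of all genes called lower moved likewise. It was 17.6, 1.21 and 0.386% without untreated replicates 1, 2 and 3 in turn. It was 3.10, 2.16 and 0.339% without doxycycline replicates 1, 2 and 3 in turn. The median change of the 34 genes stayed between -1.15 and -1.01 in the 6 fits that left out a library. Without untreated replicate 1, 12 of 14 core genes fell (median change -0.96) and 16 of 20 regulatory particle genes (-1.05). By class these were 6 of 7 alpha (-0.90), 6 of 7 beta (-1.03), 4 of 6 ATPase (-1.01) and 12 of 14 non-ATPase genes (-1.05), the last including 7 of 8 lid genes (-1.13). Values per tumour below are listed by replicate number, and in untreated MycT tumours replicate 2 stands before the library without a number.

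Among the alpha subunits, which form the gated outer rings, 4 of 7 tested genes fell in KrasT (Psma2, Psma3, Psma6 and Psma7), with a median change of -1.18. Psma2 had 99.8, 124 and 118 FPKM in doxycycline KrasT tumours, against 378, 239 and 312 FPKM in untreated KrasT tumours (log2 change -1.42 ± 0.26 (SE), limma adjusted p = 0.0182). The doxycycline tumours lay close together, well under the lowest untreated tumour. Psma7 had 132, 198 and 224 FPKM in doxycycline KrasT tumours, against 772, 368 and 437 FPKM in untreated KrasT tumours (log2 change -1.46 ± 0.36 (SE), limma adjusted p = 0.0384). Untreated replicate 1 was far the highest, yet the lowest untreated tumour still exceeded the highest doxycycline tumour. Psma6 had 118, 149 and 147 FPKM in doxycycline KrasT tumours, against 407, 227 and 292 FPKM in untreated KrasT tumours (log2 change -1.12 ± 0.28 (SE), limma adjusted p = 0.0405). Its groups were apart as well. Psma4 had the largest p of the alpha genes, with 97.6, 114 and 96.7 FPKM in doxycycline KrasT tumours, against 284, 147 and 153 FPKM in untreated KrasT tumours (log2 change -0.85 ± 0.31 (SE), limma adjusted p = 0.104). Its high untreated mean rests on replicate 1, and the other untreated tumours were much nearer the doxycycline tumours.

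In MycT the alpha subunits had the largest median change of the 4 subunit classes, -1.92. Psma6 had 178 and 118 FPKM in doxycycline MycT tumours, against 589 and 848 FPKM in untreated MycT tumours (log2 change -2.28 ± 0.39 (SE), limma adjusted p = 0.0652). Psma7 had 216 and 183 FPKM in doxycycline MycT tumours, against 669 and 919.8 FPKM in untreated MycT tumours (log2 change -1.97 ± 0.34 (SE), limma adjusted p = 0.0652). In both genes the untreated tumours stood at several times the doxycycline tumours, and both passed the joint limma fit, with adjusted p = 0.00704 for Psma6 and 0.0144 for Psma7. Psma3 and Psma5 had log2 changes of -1.92 ± 0.54 and -2.11 ± 0.53 (SE). Their wide errors go with an untreated library without a number that held far more than untreated replicate 2 (636 against 283 FPKM for Psma3, 598 against 246 FPKM for Psma5). Psma2 had 173 and 118 FPKM in doxycycline MycT tumours, against 249.7 and 365 FPKM in untreated MycT tumours, and Psma4 had 132 and 104 FPKM in doxycycline MycT tumours, against 155 and 254 FPKM in untreated MycT tumours. Their changes of -1.07 and -0.76, with that of Psma1 at -1.18, were the smallest of the ring.

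Among the beta subunits, which line the cutting chamber, 6 of 7 tested genes fell in KrasT, with a median change of -1.11, and Psmb6 missed the threshold. The 3 catalytic subunits are Psmb6, which cuts after acidic residues (beta 1), Psmb7, with trypsin-like activity (beta 2), and Psmb5, with chymotrypsin-like activity and the main target of bortezomib (beta 5). Psmb5 had 96.6, 92.1 and 81.0 FPKM in doxycycline KrasT tumours, against 236, 227 and 170.3 FPKM in untreated KrasT tumours (log2 change -1.21 ± 0.23 (SE), limma adjusted p = 0.0215). Psmb7 had 101, 116 and 81.6 FPKM in doxycycline KrasT tumours, against 240.0, 205 and 199 FPKM in untreated KrasT tumours (log2 change -1.11 ± 0.23 (SE), limma adjusted p = 0.0260). In both, every doxycycline tumour was below every untreated tumour by a wide gap. Psmb6 had 138, 131 and 122 FPKM in doxycycline KrasT tumours, against 257, 198 and 171 FPKM in untreated KrasT tumours (log2 change -0.66 ± 0.24 (SE), limma adjusted p = 0.103). Its groups did not overlap, but its change was the smallest of the 34. Psmb3, a structural subunit, had 132, 118 and 126 FPKM in doxycycline KrasT tumours, against 288, 273 and 254 FPKM in untreated KrasT tumours (log2 change -1.11 ± 0.20 (SE), limma adjusted p = 0.0195), with little spread inside either group.

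The same subunits in MycT had a median change of -1.33. Psmb5 had 94.9 and 85.3 FPKM in doxycycline MycT tumours, against 265 and 259 FPKM in untreated MycT tumours (log2 change -1.53 ± 0.30 (SE), limma adjusted p = 0.0689). Psmb6 had 116 and 108 FPKM in doxycycline MycT tumours, against 263 and 306 FPKM in untreated MycT tumours (log2 change -1.34 ± 0.31 (SE), limma adjusted p = 0.0770). Psmb7 had 121 and 96.3 FPKM in doxycycline MycT tumours, against 251 and 308 FPKM in untreated MycT tumours (log2 change -1.36 ± 0.33 (SE), limma adjusted p = 0.0805). For each catalytic gene the tumours of a group were alike and the groups were apart, and all 3 fell in the joint limma fit, with adjusted p = 0.00805 for Psmb5, 0.0135 for Psmb6 and 0.0142 for Psmb7. Psmb3 had 152 and 165 FPKM in doxycycline MycT tumours, against 329 and 288 FPKM in untreated MycT tumours (log2 change -0.96 ± 0.30 (SE), limma adjusted p = 0.112).

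The 6 ATPases form the ring that unfolds substrates. In KrasT Psmc1, Psmc3 and Psmc4 fell, and the median change of the class was -1.01. Psmc1 had 69.1, 65.5 and 62.4 FPKM in doxycycline KrasT tumours, against 164, 136 and 159.9 FPKM in untreated KrasT tumours (log2 change -1.21 ± 0.21 (SE), limma adjusted p = 0.0170). Psmc4 had 53.5, 47.9 and 43.7 FPKM in doxycycline KrasT tumours, against 97.1, 102 and 105 FPKM in untreated KrasT tumours (log2 change -1.05 ± 0.21 (SE), limma adjusted p = 0.0224). Both were tightly grouped on either side. Psmc6 had 38.1, 66.7 and 49.8 FPKM in doxycycline KrasT tumours, against 179.7, 81.1 and 141 FPKM in untreated KrasT tumours (log2 change -1.33 ± 0.37 (SE), limma adjusted p = 0.0515). Its change was the largest of the ring but its replicates were the most scattered. Psmc5 had 70.9, 56.6 and 57.9 FPKM in doxycycline KrasT tumours, against 107, 109 and 90.7 FPKM in untreated KrasT tumours (log2 change -0.72 ± 0.22 (SE), limma adjusted p = 0.0668), apart by a modest gap.

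In MycT the ATPases had a median change of -0.76, and 3 of the 6 reached an unadjusted p under 0.05. Psmc6 had 67.3 and 35.3 FPKM in doxycycline MycT tumours, against 111 and 170.0 FPKM in untreated MycT tumours (log2 change -1.47 ± 0.46 (SE), limma adjusted p = 0.1102). Psmc1 had 69.2 and 63.6 FPKM in doxycycline MycT tumours, against 112 and 160.2 FPKM in untreated MycT tumours (log2 change -1.005 ± 0.34 (SE), limma adjusted p = 0.124). Neither gene's groups overlapped, though the doxycycline tumours of Psmc6 were far from each other. Psmc4 had 48.3 and 48.4 FPKM in doxycycline MycT tumours, against 82.5 and 66.5 FPKM in untreated MycT tumours, and Psmc5 had 68.0 and 64.96 FPKM in doxycycline MycT tumours, against 109 and 81.9 FPKM in untreated MycT tumours. Both gaps were narrow, with log2 changes of -0.61 ± 0.31 and -0.50 ± 0.32 (SE). Psmc2 had 72.1 and 51.5 FPKM in doxycycline MycT tumours, against 64.9 and 104 FPKM in untreated MycT tumours, so the higher doxycycline tumour exceeded the lower untreated one.

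Of the 14 non-ATPase subunits, 7 fell in KrasT (Psmd2, Psmd4, Psmd8, Psmd9, Psmd12, Psmd13 and Psmd14), with a median change of -1.001. Psmd14, the deubiquitinase that cuts the ubiquitin chain off a substrate before it is degraded, had 39.8, 42.9 and 34.5 FPKM in doxycycline KrasT tumours, against 164, 97.0 and 128 FPKM in untreated KrasT tumours (log2 change -1.68 ± 0.26 (SE), limma adjusted p = 0.0143). The highest doxycycline tumour was under the lowest untreated tumour by more than the whole range of the doxycycline group. It had the largest change of the 34 genes and was called in 4 of the 6 fits that left out a library, more than any other proteasome gene. Psmd12, a structural lid subunit, had 31.1, 31.6 and 25.7 FPKM in doxycycline KrasT tumours, against 85.4, 64.9 and 72.3 FPKM in untreated KrasT tumours (log2 change -1.30 ± 0.23 (SE), limma adjusted p = 0.0173). Psmd13, also of the lid, had 51.5, 50.3 and 45.6 FPKM in doxycycline KrasT tumours, against 129, 107 and 99.6 FPKM in untreated KrasT tumours (log2 change -1.16 ± 0.22 (SE), limma adjusted p = 0.0197). Both had groups well apart. Psmd11, a lid subunit that in human embryonic stem cells supports high proteasome activity, had 26.3, 21.3 and 17.4 FPKM in doxycycline KrasT tumours, against 27.2, 45.4 and 42.5 FPKM in untreated KrasT tumours (log2 change -0.78 ± 0.29 (SE), limma adjusted p = 0.113). Untreated replicate 1 almost met the highest doxycycline tumour in Psmd11, as it did in Psmd1 and Psmd3, 2 other genes that missed the threshold.

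In MycT Psmd14 again had the largest change of its class, with 51.3 and 36.0 FPKM in doxycycline MycT tumours, against 153 and 233 FPKM in untreated MycT tumours (log2 change -2.11 ± 0.39 (SE), limma adjusted p = 0.0677, and 0.00729 in the joint limma fit). Psmd13 had 47.9 and 51.3 FPKM in doxycycline MycT tumours, against 135 and 106 FPKM in untreated MycT tumours (log2 change -1.26 ± 0.32 (SE), limma adjusted p = 0.0834). Their groups were clearly apart. Psmd12 had 39.5 and 26.6 FPKM in doxycycline MycT tumours, against 62.2 and 82.5 FPKM in untreated MycT tumours, and Psmd11 had 22.3 and 19.9 FPKM in doxycycline MycT tumours, against 30.7 and 43.2 FPKM in untreated MycT tumours. These gaps were smaller, with log2 changes of -1.12 ± 0.37 and -0.76 ± 0.34 (SE). The large scaffold subunits had the smallest changes: Psmd1 had 25.9 and 28.5 FPKM in doxycycline MycT tumours, against 33.0 and 34.0 FPKM in untreated MycT tumours, and Psmd2 had 59.9 and 64.2 FPKM in doxycycline MycT tumours, against 63.6 and 87.7 FPKM in untreated MycT tumours. Psmd2 overlapped, and the groups of Psmd1 were only a few FPKM apart. Both genes have long transcripts (3112 nt for Psmd1, 2961 nt for Psmd2), and transcript length is taken up below.

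The regulatory genes were also grouped by place in the particle, a division made after the values were seen. The 8 lid subunits with a Psmd symbol were Psmd3, Psmd6, Psmd7, Psmd8, Psmd11, Psmd12, Psmd13 and Psmd14. Their median change was -1.08 in KrasT and -1.19 in MycT. Psmd1, Psmd2 and Psmd4, which in or beside the base bind ubiquitin, its carriers or another receptor, had a median of -1.13 in KrasT and -0.29 in MycT, beside -1.01 and -0.76 for the ATPases that share the base with them. Psmd5, Psmd9 and Psmd10, which help to assemble the base and are not part of the finished particle, had medians of -0.91 and -0.85. They were among the least abundant of the 34 genes, with the lowest group mean of all in Psmd9, 9.56 ± 0.79 FPKM in doxycycline KrasT tumours and 18.99 ± 3.20 FPKM in untreated ones (SD, n = 3 each).

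The 2 genes that failed the filter encode subunits made in special organs. Psma8, the testis form of Psma7, had 0.668, 0.556 and 0.614 FPKM in doxycycline KrasT tumours, against 0.174, 0.0460 and 0.0448 FPKM in untreated KrasT tumours. In MycT it had 0.8003 and 2.48 FPKM in doxycycline MycT tumours, against 0.136 and 0.586 FPKM in untreated MycT tumours. All doxycycline values were above the untreated values of the same model, the reverse of the other alpha genes. So were those of 16.8% of all tested genes in KrasT and 31.9% in MycT. All Psma8 values except 1 were under 1 FPKM, and no test was made. Psmb11, the catalytic subunit of cortical thymus epithelium, had at most 0.0343 FPKM in KrasT and was listed at 0 in all 4 MycT tumours.

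**Figure D2:**
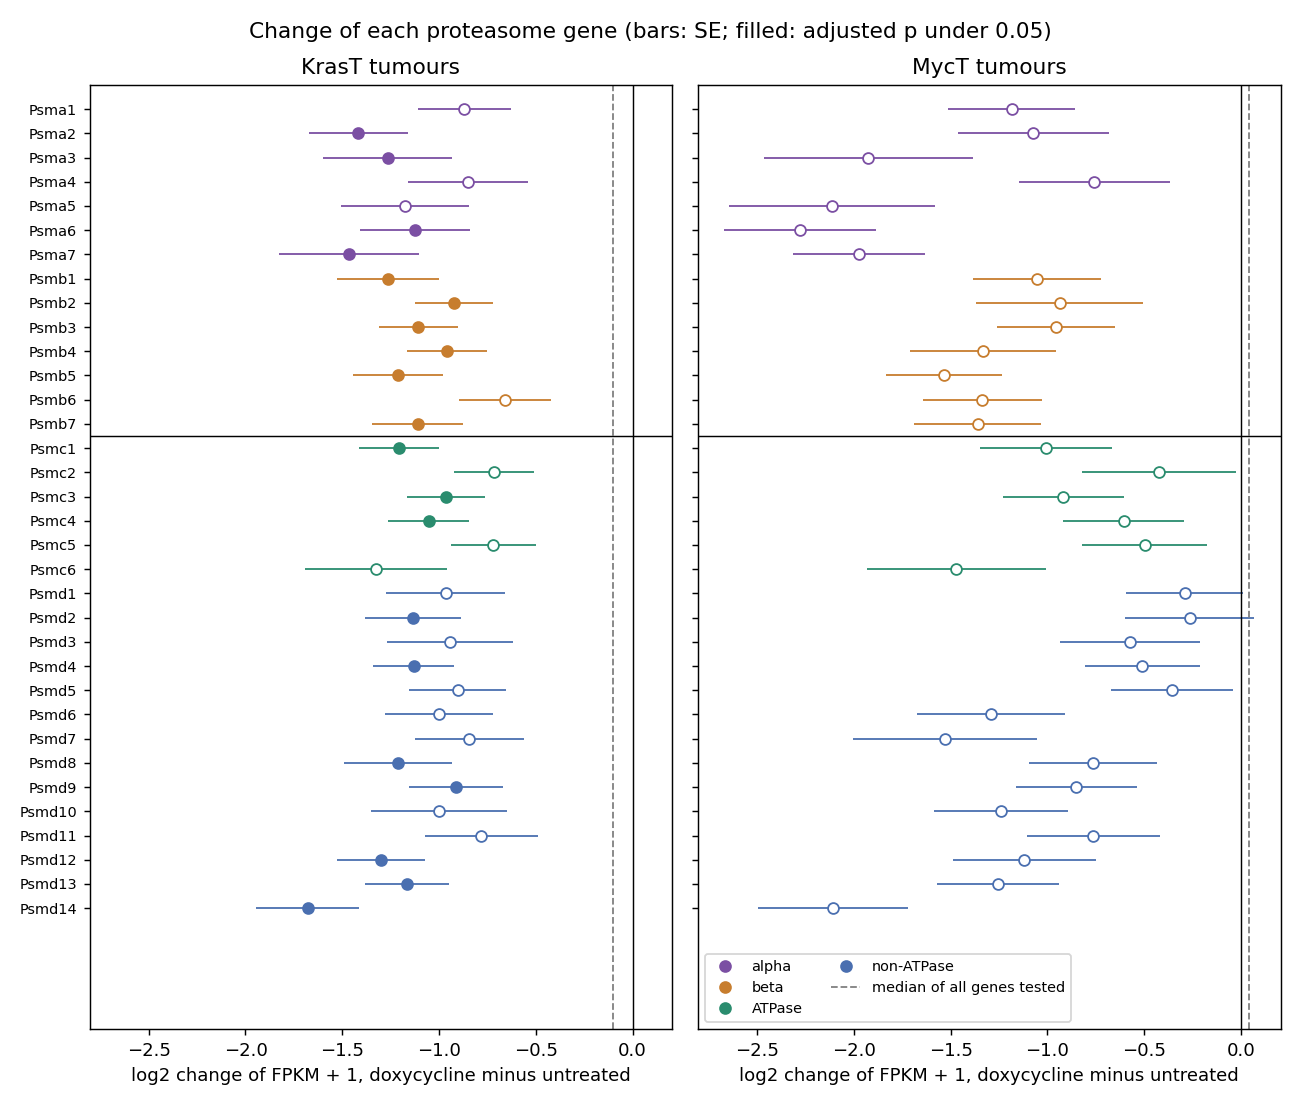
Change of each of the 34 tested genes in log2(FPKM + 1), doxycycline minus untreated (x), with the standard error as a bar, coloured by subunit class and filled where limma's adjusted p is under 0.05, for KrasT (left) and MycT (right). The dashed line is the median of all genes tested, at -0.10 in KrasT and 0.04 in MycT, and all 34 points lie to its left in both panels. With every library set to the same total, Psmb6 in KrasT and 20 of the 34 in MycT turned positive.

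Core and regulatory particle were then compared. In KrasT 10 of 14 core genes and 10 of 20 regulatory genes fell, and the median changes were -1.12 for the core and -1.001 for the regulatory particle. The gap of -0.12 between the medians is smaller than the spread of this gap between tumours (SD 0.158), and its sign turned, to 0.09 without untreated replicate 1, 0.04 without doxycycline replicate 1 and 0.08 after quantile normalization. Per tumour, the core median lay at -1.09, -0.96 and -1.12 in doxycycline KrasT tumours, against 0.31, -0.21 and -0.12 in untreated ones, each relative to the untreated mean of the gene. For the regulatory particle these values were -0.92, -0.998 and -1.08 in doxycycline KrasT tumours, against 0.09, -0.09 and -0.02 in untreated ones. Both particles shifted by a like amount in every doxycycline tumour, and neither overlapped its untreated tumours. The core median in FPKM was 2.08, 2.41 and 2.50 times the regulatory median in doxycycline KrasT tumours, against 2.63, 2.31 and 2.22 times in untreated ones, so these ratios overlapped.

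In MycT the median change was further below 0 in the core than in the regulatory particle. It was -1.33 over 14 core genes and -0.81 over 20 regulatory genes, a gap of -0.53, beside an SD between tumours of 0.104. Per tumour, the core median lay at -1.24 and -1.39 in doxycycline MycT tumours, against -0.25 and 0.25 in untreated ones, and the regulatory median at -0.79 and -0.82 in doxycycline MycT tumours, against -0.16 and 0.16 in untreated ones. The core median in FPKM was 2.58 and 2.26 times the regulatory median in doxycycline MycT tumours, against 2.81 and 3.52 times in untreated ones, without overlap. Without the unnumbered untreated library the gap was -0.37, and over the 4 fits that each left out a library it ran from -0.57 to -0.37. No p is given for a gap between lists, and members of a list are not replicates.

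**Figure D3:**
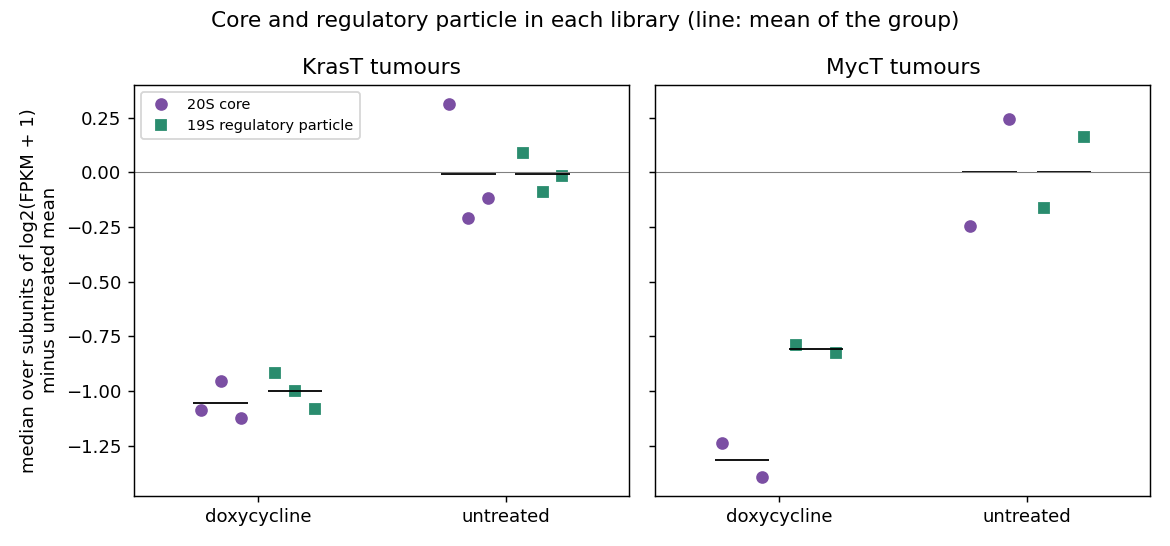
Median over core genes (circles) and over regulatory particle genes (squares) of log2(FPKM + 1) minus the untreated mean of each gene (y), 1 point per tumour and a line at the group mean, for KrasT (left) and MycT (right). In doxycycline KrasT tumours circles and squares lie together between -1.12 and -0.92, and in doxycycline MycT tumours the circles, at -1.24 and -1.39, lie below the squares, at -0.79 and -0.82.

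Transcript length differs between the particles and moves with the change in MycT. The longest protein-coding transcript had a median of 1162.5 nt for the core genes and 1887 nt for the regulatory genes. Over all MycT genes with a length (92.9% of those tested) the median change was -0.49 up to 1500 nt, -0.04 from 1501 to 3000 nt and 0.19 above 3000 nt, and in KrasT (93.2%) it was -0.33, -0.14 and -0.02 in the same classes. Within the class up to 1500 nt the MycT median was -1.34 for 11 core genes and -0.92 for 4 regulatory genes. From 1501 to 3000 nt it was -1.07 for 3 core genes and -0.88 for 14 regulatory genes. The gap of core to regulatory median was thus -0.41 in the first class and -0.19 in the second, beside -0.53 over all members. Over the 20 regulatory genes alone, the Spearman correlation of change with length was 0.43 in MycT and 0.04 in KrasT. The smallest MycT changes were those of Psmd2, Psmd1 and Psmd5, with lengths of 2961, 3112 and 4397 nt. Psmd1 and Psmd2 are also among the genes of the base set beside the lid above. The part of transcript length in the MycT gap and in these small changes was not tested.

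How far the proteasome genes changed depends on how libraries are scaled. The share of each library's total FPKM was taken over the 34 tested genes. In KrasT these genes held 0.456, 0.534 and 0.450% in doxycycline tumours, against 0.684, 0.575 and 0.670% in untreated ones, without overlap. In MycT they held 0.554 and 0.479% in doxycycline tumours, against 0.547 and 0.560% in untreated ones, which overlapped. The particles moved in opposite directions there, each without overlap. The core held 0.371 and 0.309% in doxycycline MycT tumours, against 0.392 and 0.418% in untreated ones. The regulatory particle held 0.183 and 0.170%, against 0.154 and 0.141%. In KrasT the shares of both particles were lower after doxycycline, without overlap. Setting every library to the same total (TPM scaling, chosen after seeing the data) raised the median of all genes to 0.53 in KrasT and 1.08 in MycT. The core and regulatory medians became -0.42 and -0.32 in KrasT, with Psmb6 alone turning positive at 0.04, and -0.10 and 0.38 in MycT, where 20 of 34 genes turned positive. Relative to the median of all genes, the 34 genes stood at -0.98 in KrasT and -1.10 in MycT as deposited. With TPM scaling they stood at -0.91 and -0.90. That scaling multiplies a library by a single factor, which shifts most genes nearly alike, so these offsets could change little.

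Quantile normalization, which gives every library the same distribution of values, left medians of -0.49 for the core and -0.57 for the regulatory particle in KrasT, and -0.62 and -0.38 in MycT, where Psmc2, Psmc5, Psmd1, Psmd2 and Psmd4 turned positive. Relative to the median of all genes, the 34 genes stood at -0.44 in both models with quantile normalization, nearer to it than as deposited. Median-ratio scaling, which centres the typical gene, gave -1.07 and -0.96 in KrasT and -1.37 and -0.85 in MycT. In KrasT 1 of the 34 genes was called after quantile normalization and 1 after TPM scaling. Of all tested genes 4.10% and 1.83% were called lower there, so neither count lies far from that of all genes. That gene was Psmd14 both times, with limma adjusted p = 0.0446 after quantile normalization and 0.0395 after TPM scaling.

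**Figure D4:**
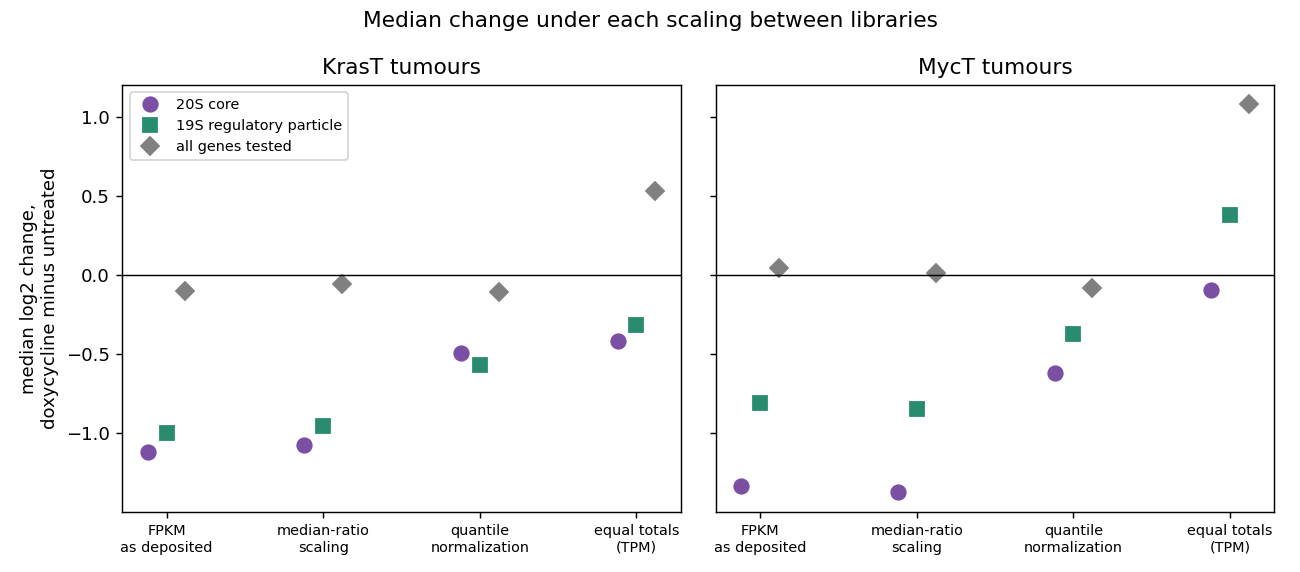
Median log2 change, doxycycline minus untreated (y), of the core genes, the regulatory particle genes and all genes tested under each scaling of the libraries (x), for KrasT (left) and MycT (right). Both proteasome medians lie below that of all genes under all 4 scalings, whereas their distance from 0 does not hold. With equal totals the MycT regulatory median is 0.38. With quantile normalization the 34 genes stand at -0.44 relative to all genes in both models, nearer than as deposited.

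The difference in change between the models was tested gene by gene in 1 limma fit of both tables. It was called for 0 of 34 proteasome genes, where 0.24% of all 12073 genes were called, and 1 of the 34 had an unadjusted p under 0.05, against 19.9% of all genes. That gene was Psma6, whose change was 1.15 lower in MycT than in KrasT (difference -1.15 ± 0.47, SE, limma adjusted p = 0.219). At the other end was Psmd2, with a difference of 0.87 ± 0.39 (SE, limma adjusted p = 0.251). The difference was negative for 10 of 14 core genes (median -0.32) and positive for 14 of 20 regulatory genes (median 0.19). A difference of single genes between KrasT and MycT was not detected, which does not show that the changes were equal.

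The 3 interferon-induced subunits, which replace the catalytic ones in the immunoproteasome, went the other way. Psmb8, the counterpart of Psmb5, had 62.3, 43.1 and 40.8 FPKM in doxycycline KrasT tumours, against 17.98, 3.998 and 5.71 FPKM in untreated KrasT tumours (log2 change 2.51 ± 0.51 (SE), limma adjusted p = 0.0242). Psmb9, the counterpart of Psmb6, had 33.7, 36.4 and 32.6 FPKM in doxycycline KrasT tumours, against 12.5, 1.33 and 1.40 FPKM in untreated KrasT tumours (log2 change 3.06 ± 0.67 (SE), limma adjusted p = 0.0289). Both rose without overlap, though untreated replicate 1 held more than the other untreated tumours. Leaving out untreated replicate 1 kept both calls, and leaving out any of the other 5 libraries ended both. Psmb10, the counterpart of Psmb7, had 51.9, 40.7 and 54.3 FPKM in doxycycline KrasT tumours, against 33.1, 20.1 and 15.1 FPKM in untreated KrasT tumours (log2 change 1.13 ± 0.33 (SE), limma adjusted p = 0.0586). In MycT Psmb8 had 108 and 108 FPKM in doxycycline MycT tumours, against 3.71 and 28.9 FPKM in untreated MycT tumours (log2 change 3.20 ± 0.92 (SE), limma adjusted p = 0.0969). Psmb9 had 88.7 and 93.0 FPKM in doxycycline MycT tumours, against 3.51 and 24.1 FPKM in untreated MycT tumours (log2 change 3.11 ± 0.86 (SE), limma adjusted p = 0.0928). Their doxycycline tumours were alike and several times above either untreated tumour, whereas Psmb10, with 57.5 and 115 FPKM in doxycycline MycT tumours, against 41.0 and 96.5 FPKM in untreated MycT tumours, overlapped.

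Set against its catalytic counterpart within each tumour, each induced form took a larger share after doxycycline. Psmb9 was 19.7, 21.7 and 21.2% of the sum of Psmb6 and Psmb9 in doxycycline KrasT tumours, against 4.63, 0.666 and 0.811% in untreated ones. Psmb8 was 39.2, 31.9 and 33.5% of the sum of Psmb5 and Psmb8 in doxycycline KrasT tumours, against 7.09, 1.73 and 3.24% in untreated ones. Psmb10 was 33.9, 26.0 and 39.9% of the sum of Psmb7 and Psmb10 in doxycycline KrasT tumours, against 12.1, 8.94 and 7.08% in untreated ones. None of these pairs overlapped between the groups. In MycT the share of Psmb9 was 43.3 and 46.3% in doxycycline tumours, against 1.31 and 7.29% in untreated ones. That of Psmb8 was 53.1 and 56.0% in doxycycline MycT tumours, against 1.38 and 10.03% in untreated ones. That of Psmb10 was 32.2 and 54.5% in doxycycline MycT tumours, against 14.0 and 23.8% in untreated ones. Multiplying a library by any factor leaves these shares as they are, because both genes of a pair are read from it.

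Immune cells express the induced forms at high levels, and some of their markers rose in the same KrasT tumours. Of all genes tested in KrasT 8.46% rose. In KrasT 2 of 5 macrophage markers rose (sums 202 to 735 FPKM in doxycycline tumours and 105 to 151 FPKM in untreated ones), 1 of 2 tested B cell markers rose (4.50 to 41.7 FPKM and 0.695 to 1.26 FPKM) and 0 of 2 tested T and NK cell markers were called (5.28 to 8.81 FPKM and 0 to 2.91 FPKM). The neutrophil sums, of which 2 of 3 markers rose, were 125 to 189 FPKM in doxycycline KrasT tumours and 11.8 to 64.4 FPKM in untreated ones. In MycT no such marker was called. The neutrophil sums overlapped there, with 353 to 365 FPKM in doxycycline MycT tumours and 31.9 to 440 FPKM in untreated ones. The macrophage sums were 277 to 407 FPKM in doxycycline MycT tumours and 71.6 to 168 FPKM in untreated ones, the B cell sums 22.9 to 106 FPKM and 2.91 to 4.69 FPKM, and the T and NK sums 17.4 to 43.0 FPKM and 0.532 to 4.50 FPKM. The part of these cells in the shares was not tested, and with 3 against 3 or 2 against 2 tumours an exact permutation test cannot go below p = 0.1 or 0.333.

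**Figure D5:**
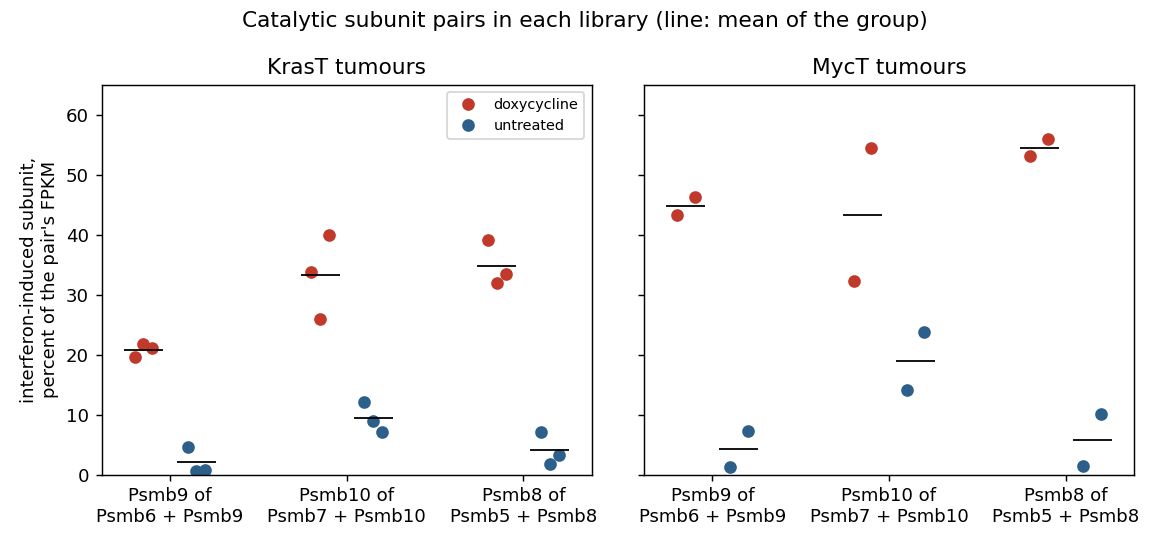
Share of the interferon-induced subunit in the summed FPKM of the pair, in percent (y), for the 3 catalytic pairs (x), 1 point per tumour with a line at the group mean, doxycycline in red and untreated in blue, for KrasT (left) and MycT (right). In every pair and both models the doxycycline tumours lie above the untreated tumours, most widely for Psmb8 in MycT, at 53.1 and 56.0% against 1.38 and 10.03%.

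Of 39 genes in 7 lists of proteasome partners, the 3 induced subunits included, 38 were tested, and Paaf1 is not analysed here. In KrasT 4 fell and 2 rose, the 2 being Psmb8 and Psmb9, where 8.25% of all genes fell and 8.46% rose, so neither count of 38 lies far from that of all genes. Among the other subunits of the regulatory particle and the proteins bound to it, 3 of 6 fell. Uchl5, a deubiquitinase of the particle, had 10.1, 8.60 and 8.70 FPKM in doxycycline KrasT tumours, against 36.8, 30.1 and 27.9 FPKM in untreated KrasT tumours (log2 change -1.68 ± 0.23 (SE), limma adjusted p = 0.0107). Usp14, another deubiquitinase of the particle, had 13.3, 10.4 and 9.07 FPKM in doxycycline KrasT tumours, against 21.7, 28.5 and 27.7 FPKM in untreated KrasT tumours (log2 change -1.18 ± 0.26 (SE), limma adjusted p = 0.0277). Txnl1, a thioredoxin that binds the particle, had 28.8, 31.7 and 31.5 FPKM in doxycycline KrasT tumours, against 116, 64.0 and 86.9 FPKM in untreated KrasT tumours (log2 change -1.47 ± 0.27 (SE), limma adjusted p = 0.0196). The groups of all 3 were apart. Leaving out a library kept the call of Uchl5 in 4 of 6 fits and those of Usp14 and Txnl1 in 2 of 6 each, and with quantile normalization or TPM scaling only that of Uchl5 was kept. Adrm1, a ubiquitin receptor, had a log2 change of -0.88 ± 0.26 (SE, limma adjusted p = 0.0609). Shfm1 had one of -0.79 ± 0.28 (SE, limma adjusted p = 0.0940). In MycT limma called 0 of the 38 within the MycT table, and 11 had an unadjusted p under 0.05, beside 33.4% of all genes. The joint limma fit called 7 lower and 3 higher, beside 12.3 and 8.11% of all genes. Uchl5, Usp14 and Txnl1 there had log2 changes of -1.18, -0.86 and -1.36. Adrm1 had one of -0.08 and Shfm1 one of -0.49, both with overlapping groups.

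Of the 5 chaperones that build the core, only Pomp, which is consumed as the barrel closes, fell in KrasT, with 160.0, 166 and 134 FPKM in doxycycline KrasT tumours, against 383, 259 and 263 FPKM in untreated KrasT tumours (log2 change -0.95 ± 0.25 (SE), limma adjusted p = 0.0464). That call was lost in 5 of the 6 fits that left out a library and in 8 of 10 other alternatives, median-ratio scaling (adjusted p = 0.0533) and the joint fit (0.0835) among them, with limma adjusted p from 0.00680 to 0.481 over those 10. The others, Psmg1 to Psmg4, overlapped between the KrasT groups, with log2 changes of -0.36, -0.34, -0.63 and -0.58, all of which turned positive with TPM scaling. In MycT Psmg4 had 48.5 and 57.2 FPKM in doxycycline MycT tumours, against 254 and 495 FPKM in untreated MycT tumours (log2 change -2.73 ± 0.44 (SE), limma adjusted p = 0.0638, and 0.00745 in the joint limma fit). That is a larger change than any of the 34 subunits had. Psmg1, Psmg2 and Psmg3 had log2 changes of -1.83, -1.32 and -1.80, without overlap, and Pomp overlapped at -0.66. The difference between models was not called for any of the 5, with limma adjusted p = 0.102 for Psmg4.

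The remaining lists held no called gene in either model's own limma fit. The 5 activators and inhibitor genes had median changes of -0.38 in KrasT and 0.23 in MycT, the 8 shuttle factors and VCP partners -0.80 and -0.34, and the 6 genes of ubiquitin and its activating enzymes -0.71 and -0.44. With TPM scaling these medians became 0.32 and 1.40 for the activators and inhibitor, -0.13 and 0.85 for the shuttle factors, where 8 of 8 MycT changes were positive, and -0.09 and 0.64 for the ubiquitin genes. Quantile normalization turned the last to 0.01 in KrasT and 0.22 in MycT. Rps27a, which encodes ubiquitin fused to a ribosomal protein, had log2 changes of -1.20 ± 0.41 in KrasT and -2.41 ± 0.48 in MycT (SE). Nfe2l1, which encodes the transcription factor that raises proteasome genes when proteasome activity is short, had 76.3, 58.4 and 58.3 FPKM in doxycycline KrasT tumours, against 67.8, 67.4 and 52.2 FPKM in untreated KrasT tumours. Those groups overlapped. In MycT it had 75.5 and 46.1 FPKM in doxycycline MycT tumours, against 17.5 and 21.0 FPKM in untreated MycT tumours (log2 change 1.57 ± 0.38 (SE), limma adjusted p = 0.0807, and 0.0133 in the joint limma fit). Its message was thus higher in both doxycycline MycT tumours than in either untreated one, opposite in direction to the subunit genes as deposited.

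The promoters of the subunit genes were read from RefSeq, build GRCm38.p6, as 250 bases before to 50 bases after each start. Of the 36 genes 29 matched, with 31 promoters in all (13 core, 18 regulatory), and 4 motifs were searched on both strands. Psma8, Psmb1, Psmb2, Psmb7, Psmc3, Psmd3 and Psmd7 had no match. CCGGAAG, the core of sites for ETS factors (CTTCCGG on the other strand), was in 10 of 18 regulatory promoters (55.6%, from 9 of 17 genes) and in 1 of 13 core promoters (7.69%, Psma6), beside 8.86% of all 32851 promoters and 16.6% of the 12227 promoters of genes tested in KrasT. CCAAT, the box of NF-Y, was in 7 of 13 core promoters (53.8%) and 5 of 18 regulatory ones (27.8%). It was in 37.4% of all and 37.0% of those of genes tested in KrasT. The 7 include Psmb11, which failed the filter. With 100 bases before the start instead of 250, CCAAT was in 5 of 13 core and 4 of 18 regulatory promoters, beside 23.4% of all. TGACNNNGC, the core of the antioxidant response element, to which Nfe2l1 binds, was in 2 of 13 core promoters (Psmb5 and Psmb6) and 3 of 18 regulatory ones (Psmc6, Psmd9 and Psmd12), beside 12.4% of all. CACGTG, the E-box that Myc can bind, was in 1 promoter of each particle (Psma4 and Psmd9), beside 7.15% of all. In the windows printed here no match overlaps another, and a match is a description of the letters, not a bound site.

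Windows from 150 bases before to 20 after the start are shown for a few genes, chosen after the values were seen, with matches in capitals. The first 4 are regulatory particle genes with the ETS core close to the start: Psmd13 and Psmc1 fell in KrasT, Psmd11 did not pass the test in either model, and Psmd2 fell in KrasT and had the smallest MycT change.
Psmd13 (chr7:140882244-140882413, strand +): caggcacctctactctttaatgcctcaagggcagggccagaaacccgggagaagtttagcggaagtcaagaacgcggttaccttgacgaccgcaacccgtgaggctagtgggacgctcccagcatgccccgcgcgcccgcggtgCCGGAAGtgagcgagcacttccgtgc
Psmc1 (chr12:100110052-100110221, strand +): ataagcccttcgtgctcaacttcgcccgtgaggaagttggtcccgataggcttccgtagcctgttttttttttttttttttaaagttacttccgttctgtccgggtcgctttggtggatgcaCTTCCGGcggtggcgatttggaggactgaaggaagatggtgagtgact
Psmd11 (chr11:80428465-80428634, strand +): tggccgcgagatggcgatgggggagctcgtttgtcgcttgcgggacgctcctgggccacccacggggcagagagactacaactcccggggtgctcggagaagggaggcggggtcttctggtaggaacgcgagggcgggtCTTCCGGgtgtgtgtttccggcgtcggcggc
Psmd2 (chr16:20651502-20651671, strand +): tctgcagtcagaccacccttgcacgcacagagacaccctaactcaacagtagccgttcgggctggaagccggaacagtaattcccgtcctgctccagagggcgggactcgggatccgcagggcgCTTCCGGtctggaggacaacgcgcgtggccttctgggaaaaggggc
The other 3 are core genes, Psmb3 and Psma2 with CCAAT and Psmb5 with the antioxidant response element core.
Psmb3 (chr11:97703284-97703453, strand +): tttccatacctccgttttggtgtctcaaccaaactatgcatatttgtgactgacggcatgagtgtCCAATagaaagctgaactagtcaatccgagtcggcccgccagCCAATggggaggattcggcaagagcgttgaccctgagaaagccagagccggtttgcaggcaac
Psma2 (chr13:14613092-14613261, strand +): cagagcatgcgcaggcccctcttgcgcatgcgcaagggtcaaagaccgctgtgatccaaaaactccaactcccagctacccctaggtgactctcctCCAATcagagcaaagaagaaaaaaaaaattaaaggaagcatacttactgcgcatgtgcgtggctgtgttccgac
Psmb5 (chr14:54617976-54618145, strand −): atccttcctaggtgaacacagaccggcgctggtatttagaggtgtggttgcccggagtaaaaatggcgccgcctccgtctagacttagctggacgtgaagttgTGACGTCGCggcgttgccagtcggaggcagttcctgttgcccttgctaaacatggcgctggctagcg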

How the data were processed

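Tumour RNA (RNeasy, TruSeq RNA kit, HiSeq2000, per the labels' protocols) was measured in 10 libraries. The authors deposited FPKM in 1 table per model. The submitters' processing notes name cutadapt, TopHat and the build mm9. What program and annotation gave the FPKM, whether strand was used and how reads shared with near-identical copies were counted are points on which the sources used here are silent. Animal numbers in the column names tied columns to samples. The number of 1 untreated MycT column is in no label, so that library has no replicate number. Tumours were from separate animals, per the labels, without pairing.

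Of 23951 rows per table, 27 were dropped because their symbols read as dates. Read depth is unknown. The value steps of rarely detected genes put relative depth, with untreated KrasT replicate 1 or untreated MycT replicate 2 near 1, between 0.755 and 1.185 in KrasT and between 0.622 and 1.003 in MycT. Genes with at least 1 FPKM in at least 3 KrasT or 2 MycT libraries were kept, and log2(FPKM + 1) was tested separately for the models (limma 3.58.1, R 4.3.3, eBayes with trend, two-sided, Benjamini-Hochberg over all genes, threshold 0.05). A fold change on this scale understates the change of low genes. The difference between models is the interaction term when both tables are fitted jointly. Lengths are those of the longest protein-coding transcript in the GRCm38 annotation provided, matched by symbol, and promoters are RefSeq's on GRCm38.p6. No coordinate of the authors' build is given. Scripts were tested on simulated data. Python 3.11.15 with matplotlib 3.10.9 drew the figures.

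The members, the 7 partner lists, the 13 marker lists and the rule for named genes were chosen with earlier results of these data known. The rule gives values in every library for the catalytic subunits, for the 2 genes of each class with the smallest p in each model, for that with the largest p in KrasT, and for members that failed the filter. Psmc2, Psmd1, Psmd2, Psma3 and Psma5 were added after their values were seen. Alternatives were a pseudocount of 0.1, no filter or one on a mean of 5 FPKM, quantile normalization, median-ratio scaling, eBayes made robust or without trend, library weights, the joint fit, leaving out each library and a promoter window from 100 bases before. TPM scaling, and library weights for the medians, were added after seeing the data.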

Additional observations from a re-analysis of the deposited data

How the results depend on the processing

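No paired analysis was possible because the replicate numbers only name tumours in order of deposit and pair none of them, and each tumour's label carries a different animal number. The depth in reads is unknown. With 2 MycT tumours per group, limma called 5 of 12834 genes as deposited and 29.9% as higher with TPM scaling. Median-ratio scaling, a pseudocount of 0.1, no filter, a mean of at least 5 FPKM, robust eBayes and no trend turned the direction of no subunit gene and moved no count of called subunit or partner genes beyond 1.5 times. Over all genes, a mean of at least 5 FPKM gave 439 higher calls in KrasT, against 1074, and 9 lower calls in MycT, against 4, and no filter left 0 calls in MycT. The 20 subunit genes called in KrasT became 1 with quantile normalization, 34 with library weights and 1 with TPM scaling. Of all KrasT genes 8.25% were called lower as deposited, and 4.10, 25.2 and 1.83% under these settings in turn. Without 1 library the subunit count ran from 0 to 28, beside 0.339 to 17.6% of all genes. The joint fit gave 18 in MycT. The difference between models was called for 0 of the 34 under every alternative. Of the partner genes, the 4 called lower in KrasT became 1 with quantile normalization, 19 with library weights, 1 with TPM scaling, 7 in the joint fit and 0 to 13 without 1 library. The 2 called higher became 5 with TPM scaling, beside 20.1% of all genes, and 0 to 3 without 1 library. In MycT the 0 called partner genes became 7 with TPM scaling and 10 in the joint fit. The cause was not tested for these, beyond the fewer samples of the fits without a library.

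The KrasT medians were -0.49 (core) and -0.57 (regulatory particle) with quantile normalization and -0.42 and -0.32 with TPM scaling, and the regulatory median was -1.14 with library weights. Their gap turned to 0.079 with quantile normalization and 0.19 with library weights, and it ran from -0.16 to 0.089 without 1 library. The MycT medians were -0.62 and -0.38 with quantile normalization and -0.10 and 0.38 with TPM scaling. The MycT gap was -0.24 with quantile normalization and ran from -0.57 to -0.37 without 1 library.

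With TPM scaling these MycT changes turned positive: Psma1 0.052, Psma2 0.17, Psma4 0.48, Psmb1 0.19, Psmb2 0.30, Psmb3 0.28, Psmc1 0.23, Psmc2 0.81, Psmc3 0.32, Psmc4 0.62, Psmc5 0.73, Psmd1 0.92, Psmd2 0.96, Psmd3 0.65, Psmd4 0.72, Psmd5 0.83, Psmd8 0.47, Psmd9 0.31, Psmd11 0.44, Psmd12 0.10, Uchl5 0.017, Usp14 0.31, Adrm1 1.14 and Pomp 0.58. In KrasT it turned Psmb6 to 0.042, Psmg1 to 0.32, Psmg2 to 0.34, Psmg3 to 0.047 and Psmg4 to 0.11. Quantile normalization turned the MycT changes of Psmc2 to 0.12, Psmc5 to 0.065, Psmd1 to 0.017, Psmd2 to 0.28, Psmd4 to 0.058, Adrm1 to 0.35 and Pomp to 0.069. Without 1 library the MycT change of Psmb10 ran from -0.24 to 0.97, that of Adrm1 from -0.31 to 0.14, and the KrasT change of Nfe2l1 from -0.087 to 0.10.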
